A study of Mus musculus with 6 samples.

Results

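Chemokines, interleukins, the cytokines of the TNF superfamily and the receptors of all 3 families were compared between primary osteoblasts of 2 genotypes, wild type (WT) and a conditional knockout of Tet1, Tet2 and Tet3 (TCKO). Members were taken by gene name, as Ccl, Cxcl, Cx3c, Ccr, Cxcr, Ackr or Il followed by a number, or Tnfsf or Tnfrsf. This gave 91 genes, of which 12 were set aside beforehand (among them Cxcl12, Il6, Tnfsf11 and Il1r1), leaving 79 of the 16455 genes in the table. The cells came from parietal bone of the skull of 3-day-old C57/B6 pups and were cultured for 3 days before RNA was extracted. In TCKO mice the floxed Tet alleles were cut by Prx1-Cre, which is active in limb and skull mesenchyme, so cells of other origin keep their Tet genes. There were 3 libraries per genotype, with 8119261 to 10657824 reads each, and nothing in the labels ties a library to a separate animal or culture, so p-values measure only the spread between these libraries.

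Chemokines are small secreted proteins that guide migrating cells through G protein-coupled receptors, while atypical receptors such as Ackr3 and Ackr4 bind and remove chemokines without that signal. Interleukins act through receptor chains that recruit JAK kinases or, for the interleukin 1 and interleukin 17 receptor families, other adaptors, and several of them share the signalling chain gp130, encoded by Il6st. TNF superfamily ligands bind receptors that recruit TRAF adaptors and activate NF-kB or, for those with a death domain, cell death. In bone these factors carry signals between osteoblasts, osteoclasts and blood-forming cells.

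Expression was measured as CPM, the reads of a gene per 1000000 reads of the library after TMM scaling. At 1 CPM a gene has about 8 to 11 reads in a library. Of the 79 members 58 had enough reads to be tested, and the other 21 had 10 to 50 reads over the 6 libraries together and at most 2.16 CPM in any library. Replicates 1 and 2 of each genotype were much closer to each other than to replicate 3 (chi-square per degree of freedom of 1.69 in WT and 2.41 in TCKO, against 14.6 to 21.2 for pairs with replicate 3), so members are given by library, and results were recomputed without replicate 3 and with replicates 1 and 2 added together. The targeted genes were not absent in TCKO. Tet1 fell (log2 fold change -0.94, edgeR adjusted p = 0.0207), Tet3 rose (0.48, edgeR adjusted p = 0.00803) and Tet2 did not pass (-0.29, edgeR adjusted p = 0.244); the table gives whole-gene counts, so reads outside the deleted parts are included.

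Of the 58 members tested, 4 were higher and 8 were lower in TCKO at an edgeR adjusted p under 0.05, where 9.44% of the 13630 genes tested were higher and 8.9% were lower. With a fold above 2 as well, 2 members were higher and 6 were lower, against 3.01% and 3.06% of all genes tested. The median log2 fold change was -0.04 over the members and -0.00 over all genes. In 21 members (36.2%) the WT and TCKO libraries did not overlap, against 38.2% of all genes, a share close to the background. The members that passed were Tnfsf18, Cxcr6, Tnfrsf23 and Il1rl2, which rose, and Ackr4, Il31ra, Cxcl14, Tnfrsf19, Tnfrsf14, Ackr3, Tnfrsf1b and Il11ra1, which fell. Tnfsf18, Cxcr6, Ackr4, Il31ra, Cxcl14, Tnfrsf19 and Tnfrsf14 passed with each of the 6 libraries left out in turn.

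**Figure D1:**
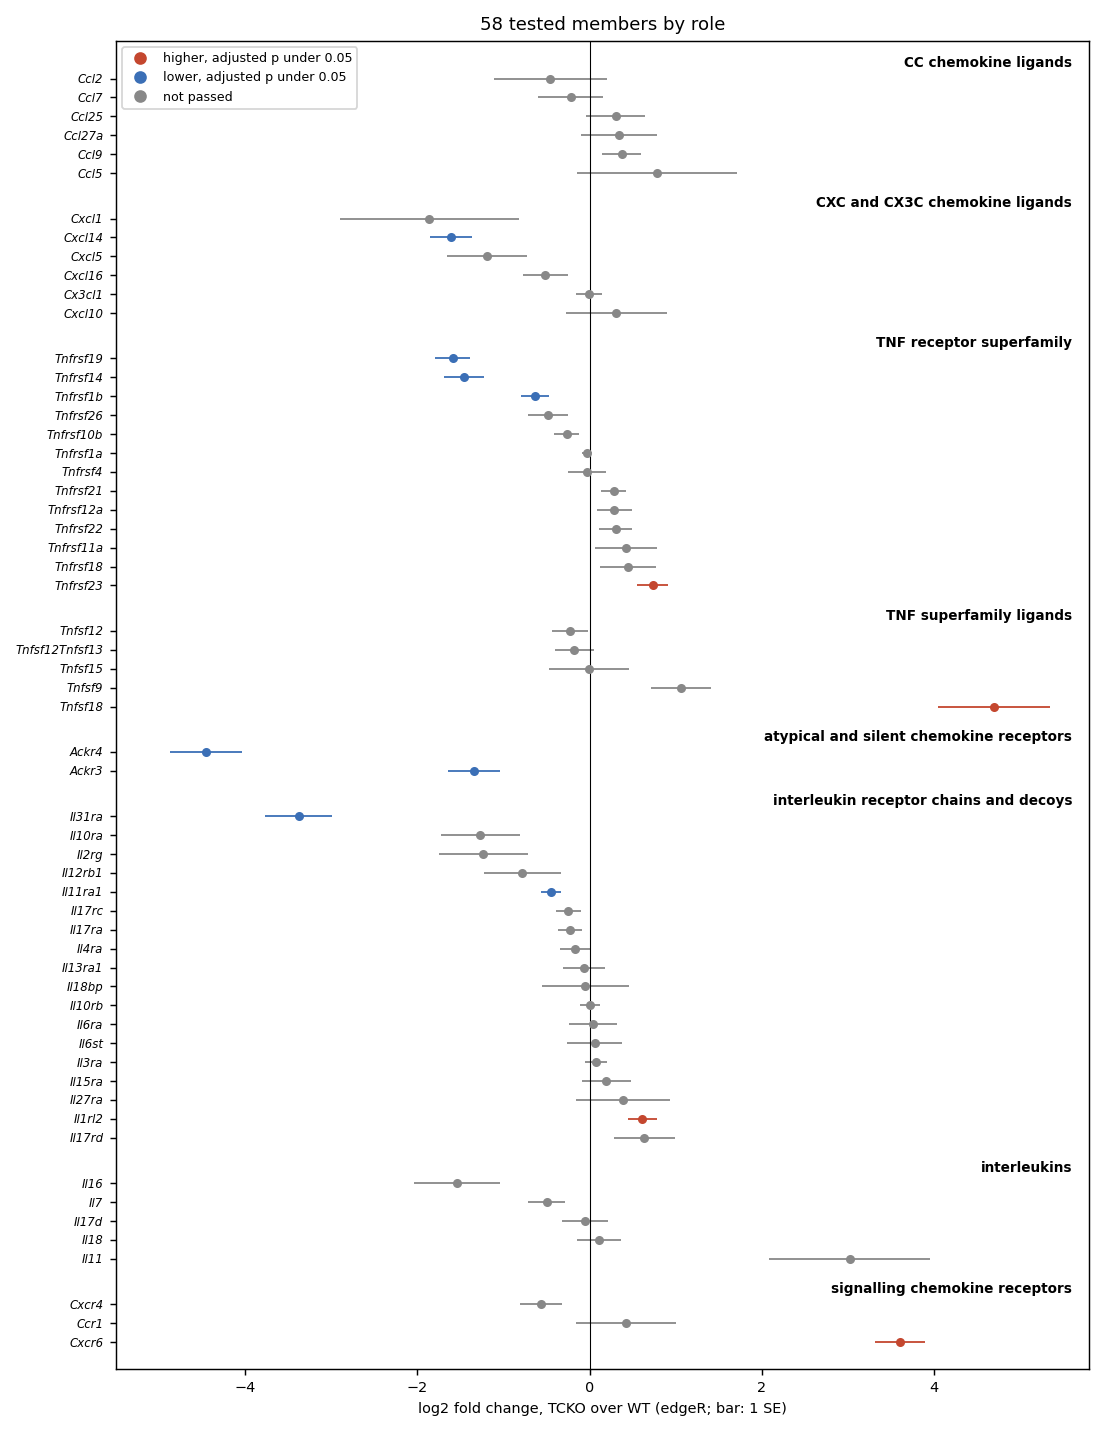
Log2 fold change of TCKO over WT (horizontal axis; points, edgeR estimate; bars, 1 SE, n = 3 per genotype) for the 58 tested members, grouped by role. Red points are the 4 members that rose, blue points the 8 that fell and grey points the 46 that did not pass; Ackr4 at -4.45 and Tnfsf18 at 4.69 are the ends of the range.

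Promoter windows of 5 of these 7 members are shown first, because TET enzymes act on methylated cytosine, which in mammals lies mostly in CpG dinucleotides. Each window has 300 bases (build GRCm38.p6), 5′ to 3′, with every CpG in capitals. For Cxcr6, Tnfsf18 and Ackr4 it holds 250 bases before and 50 after the start of the gene coordinates given below. That of Il31ra holds fewer than 250 bases before this start, and that of Cxcl14 lies wholly within the gene coordinates. No methylation was measured in these libraries.
Cxcr6 (chr9:123806227-123806526, plus strand): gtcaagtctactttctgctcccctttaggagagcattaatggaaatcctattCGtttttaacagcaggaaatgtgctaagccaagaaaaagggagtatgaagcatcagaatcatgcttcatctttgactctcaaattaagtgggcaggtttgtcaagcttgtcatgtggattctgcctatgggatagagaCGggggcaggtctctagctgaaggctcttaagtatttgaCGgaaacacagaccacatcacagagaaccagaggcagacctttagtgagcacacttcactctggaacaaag
Tnfsf18 (chr1:161494407-161494706, plus strand): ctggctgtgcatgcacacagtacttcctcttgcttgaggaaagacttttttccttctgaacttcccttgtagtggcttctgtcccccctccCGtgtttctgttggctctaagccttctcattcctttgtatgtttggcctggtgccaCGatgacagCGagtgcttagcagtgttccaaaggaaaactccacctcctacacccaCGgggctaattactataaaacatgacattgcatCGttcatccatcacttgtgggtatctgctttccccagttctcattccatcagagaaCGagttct
Ackr4 (chr9:104126594-104126893, minus strand): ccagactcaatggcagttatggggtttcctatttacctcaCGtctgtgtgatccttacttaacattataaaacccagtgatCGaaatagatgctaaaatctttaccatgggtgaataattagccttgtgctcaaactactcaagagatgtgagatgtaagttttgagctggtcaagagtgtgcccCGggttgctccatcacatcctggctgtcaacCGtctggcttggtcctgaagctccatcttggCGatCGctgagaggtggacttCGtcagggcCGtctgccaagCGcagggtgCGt
Il31ra (chr13:112580613-112580912, minus strand): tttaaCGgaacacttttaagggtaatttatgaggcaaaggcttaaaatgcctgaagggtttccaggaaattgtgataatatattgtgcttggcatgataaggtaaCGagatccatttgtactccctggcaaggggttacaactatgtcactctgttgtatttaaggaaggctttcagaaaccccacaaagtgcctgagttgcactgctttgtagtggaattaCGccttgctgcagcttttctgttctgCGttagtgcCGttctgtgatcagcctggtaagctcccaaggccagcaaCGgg
Cxcl14 (chr13:56296502-56296801, minus strand): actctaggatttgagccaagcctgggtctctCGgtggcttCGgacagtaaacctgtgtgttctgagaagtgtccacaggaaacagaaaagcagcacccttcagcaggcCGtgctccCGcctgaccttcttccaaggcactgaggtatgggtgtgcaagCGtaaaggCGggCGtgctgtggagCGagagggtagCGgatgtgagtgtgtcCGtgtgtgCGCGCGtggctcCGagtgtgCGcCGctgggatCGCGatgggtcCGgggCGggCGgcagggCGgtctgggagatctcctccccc

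The windows of Cxcr6 and Tnfsf18, which rose, held 3 and 6 CpG, those of Ackr4 and Il31ra, which fell, held 10 and 6, and that of Cxcl14 held 22. The promoter table gave a window for 60 of the 79 members, and the first window listed was taken where a gene had several. The median was 7 CpG over these members and 7 over the 27025 genes of the promoter table. It was 4.5 in the windows of the 4 members that rose (range 3 to 9), 9 in those of the 8 that fell (range 2 to 22) and 10.5 in those of the 30 tested members with a window that did not pass. The core of the RUNX motif, searched as TGTGGT and as ACCACA on the other strand, was in 14 of the 60 windows (23.3%) and in 16.9% of all windows. It was in 2 of the 4 windows of members that rose and in 1 of the 8 of those that fell (12.5%). Of the 30 windows of tested members that did not pass, 4 held it (13.3%). The other windows with the core were those of members not tested. Among the 5 windows shown it was found in that of Cxcr6 alone, at base 241 from the 5′ end. A match is a run of letters and was not tested as a site.

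Both atypical chemokine receptors among the members were lower in TCKO. Ackr4 (chr9:104097682-104126643), which scavenges Ccl19, Ccl21 and Ccl25, was at 27.7, 34.3 and 13.8 CPM in WT replicates 1 to 3 and at 1.11, 0.983 and 1.33 CPM in TCKO replicates 1 to 3. All 3 TCKO libraries lay far below the lowest WT library, which was replicate 3. The log2 fold change was -4.45 ± 0.42 (SE, n = 3 per genotype, edgeR adjusted p = 0.000801). Ackr4 lies within Acad11 on the opposite strand, and the sources used here do not say whether the counting used strand. Acad11 was at 38.6 to 45.6 CPM in WT and 22.7 to 30.7 CPM in TCKO (log2 fold change -0.63, edgeR adjusted p = 0.0129), and the part of Acad11 reads in the Ackr4 counts was not tested.

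Ackr3 (chr1:90203980-90215724), an atypical receptor that binds and takes up Cxcl12, was at 29, 32.4 and 47.8 CPM in WT and at 11.3, 10.7 and 20.8 CPM in TCKO. Replicate 3 was the highest library in both genotypes, and the genotypes did not overlap. Ackr3 fell by 1.34 ± 0.30 on the log2 scale (SE, n = 3 per genotype, edgeR adjusted p = 0.0259). When a library was left out, the edgeR adjusted p became 0.0695 (WT replicate 2), 0.089 (TCKO replicate 1) or 0.0826 (TCKO replicate 2). Its ligand Cxcl12, which holds blood-forming cells in bone marrow, rose from 19.5, 20.9 and 25.8 CPM in WT to 65.1, 60.1 and 51.4 CPM in TCKO (log2 fold change 1.42 ± 0.13, edgeR adjusted p = 0.000444). Cxcr4, the signalling receptor of Cxcl12, was at 5.06, 5.41 and 5.03 CPM in WT and 2.66, 4.67 and 3.21 CPM in TCKO and did not pass (log2 fold change -0.56 ± 0.24, edgeR adjusted p = 0.151). All 3 TCKO libraries of Cxcr4 were nonetheless below the WT libraries.

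Among the 5 signalling chemokine receptors, 3 could be tested and 1 rose (33.3%, against 18.3% of all genes tested higher or lower). Cxcr6 (chr9:123806477-123811754), the receptor of the membrane-bound chemokine Cxcl16, is known from T cells and natural killer T cells. It had 2.42, 0.949 and 3 CPM in WT, from 21, 10 and 25 reads, and 24.5, 25.2 and 25.7 CPM in TCKO, from 221, 205 and 232 reads. The TCKO libraries were close to each other and all far above WT. The log2 fold change was 3.60 ± 0.29 (SE, n = 3 per genotype, edgeR adjusted p = 0.000298), a fold of 12.1. By RPKM, the CPM divided by the exon length in kilobases, Cxcr6 moved from rank 43 of the 79 members in WT (1.1 RPKM) to rank 9 in TCKO (13 RPKM).

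Values of other cells and genes were set beside those of Cxcr6. The lymphocyte markers were close to absent, with 2 of 7 listed genes in the table (Cd79a and Cd4) and sums of 0.599 to 1.73 CPM in WT and 0.332 to 0.886 CPM in TCKO, and neither was tested. Cxcr6 lies inside Fyco1 on the opposite strand. Fyco1 was at 53.9 to 59.6 CPM in WT and 66 to 73.3 CPM in TCKO (log2 fold change 0.28, edgeR adjusted p = 0.0409), and the part of Fyco1 reads in the Cxcr6 counts was not tested. Ccr1, a receptor of Ccl3 that lies on the same stretch of chromosome 9, was low, at 0.24 to 1.33 CPM in WT and 0.664 to 1.66 CPM in TCKO (edgeR adjusted p = 0.659). Cxcl16, the ligand of Cxcr6, was at 7.71, 8.26 and 4.31 CPM in WT and 4.76, 5.04 and 4.43 CPM in TCKO, with overlapping genotypes (log2 fold change -0.52 ± 0.26, edgeR adjusted p = 0.209). Without WT replicate 3 its edgeR adjusted p was 0.0217.

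**Figure D2:**
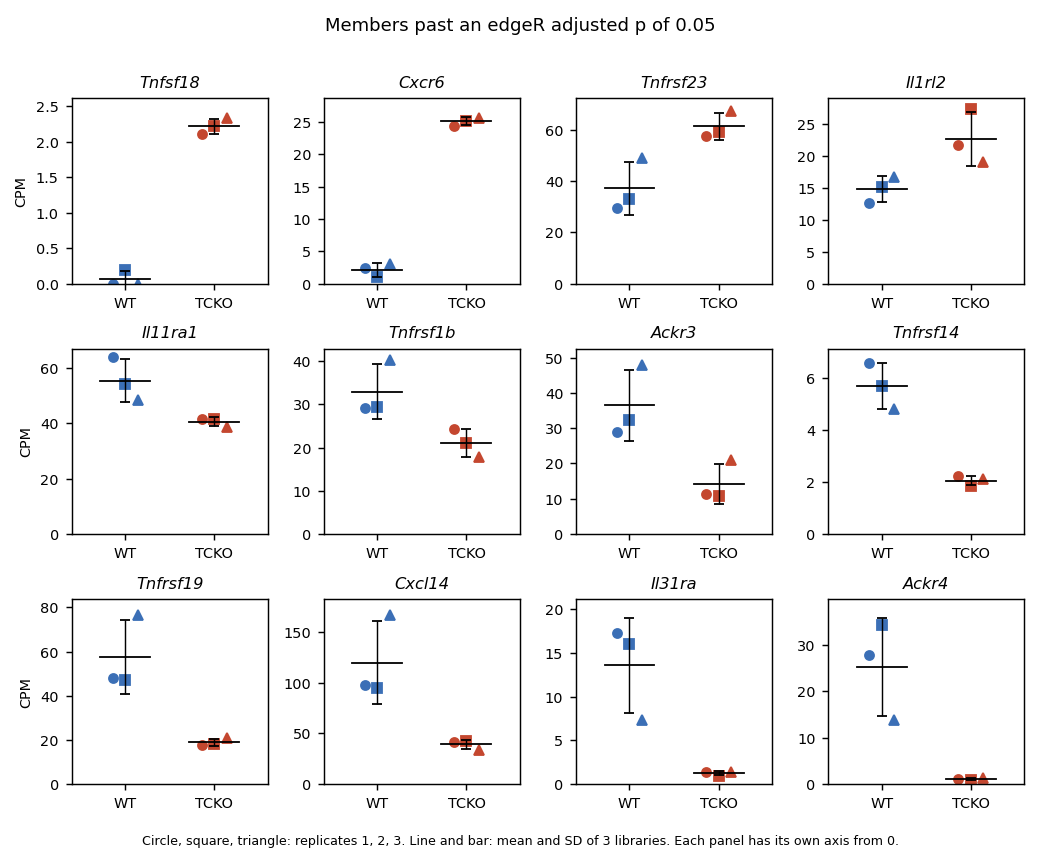
CPM (vertical axis of each panel) by genotype for the 12 members that passed, ordered by log2 fold change; points are libraries, and the line and bar are the mean and SD of 3 libraries. The genotypes did not overlap in any of the 12, and Cxcr6 was at 0.949 to 3 CPM in WT and 24.5 to 25.7 CPM in TCKO.

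Of the 8 CXC and CX3C ligands 6 were tested and 1 fell (16.7%, against 18.3% of all genes tested higher or lower). Cxcl14 (chr13:56288643-56296811), a chemokine of epithelium and connective tissue, was the fourth most abundant member per exon length in WT (65.5 RPKM). It was at 97.8, 94.6 and 166 CPM in WT and 41.1, 42.6 and 33.8 CPM in TCKO. WT replicate 3 was the highest library and TCKO replicate 3 the lowest, with no overlap between genotypes. Cxcl14 fell by 1.61 ± 0.24 on the log2 scale (SE, n = 3 per genotype, edgeR adjusted p = 0.00654). With replicates 1 and 2 added together the edgeR adjusted p was 0.06.

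The ligands of the neutrophil receptor Cxcr2 lie side by side on chromosome 5, and 2 of them could be tested. Cxcl5 was at 5.76, 3.8 and 13.5 CPM in WT and 2.99, 3.32 and 3.65 CPM in TCKO. The genotypes did not overlap, but the WT libraries spread widely (log2 fold change -1.19 ± 0.47, edgeR adjusted p = 0.122). Cxcl1, chosen after its values were seen, was at 1.96, 2.56 and 16.2 CPM in WT and 1.11, 0.737 and 3.65 CPM in TCKO. Replicate 3 was far above the other libraries in both genotypes, and within each pair of equal number TCKO was the lower. The log2 fold change was -1.87 ± 1.04 (edgeR adjusted p = 0.274), and with the replicate block it was -1.77 (edgeR adjusted p = 0.0058). Cx3cl1, the membrane-bound ligand of the macrophage receptor Cx3cr1, was at 16.8, 17.5 and 21 CPM in WT and 20.4, 19.3 and 15.1 CPM in TCKO (log2 fold change -0.01 ± 0.15, edgeR adjusted p = 0.964).

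No CC ligand of the 6 tested passed in either direction, and in none of them were the genotypes free of overlap. By edgeR 0 of the 6 had an unadjusted p under 0.05, against 4493 of all 13630 genes tested, and DESeq2 also called 0. The most abundant were ligands of the monocyte receptor Ccr2. Ccl7 was at 13.6, 16.3 and 34.5 CPM in WT and 15.6, 16 and 23.3 CPM in TCKO (log2 fold change -0.22 ± 0.37, edgeR adjusted p = 0.724). Ccl2 was at 7.14, 12.2 and 34.8 CPM in WT and 8.42, 10.3 and 20.3 CPM in TCKO (log2 fold change -0.46 ± 0.66, edgeR adjusted p = 0.681). Both were highest in replicate 3 of each genotype. Ccl9, a ligand of Ccr1 made by osteoclast-lineage cells, was at 5.76, 5.79 and 7.67 CPM in WT and 8.53, 10.1 and 6.2 CPM in TCKO (log2 fold change 0.37 ± 0.22, edgeR adjusted p = 0.296). Ccl25, a ligand of Ackr4, was at 1.52 to 3.48 CPM in WT and 2.34 to 3.32 CPM in TCKO (edgeR adjusted p = 0.581). Ccl20, listed with it among ligands paired to Ackr4, had 7 reads in WT and 21 in TCKO and was not tested.

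In the TNF superfamily 1 of 5 tested ligands rose (20%, against 18.3% of all genes tested higher or lower). Tnfsf18 (chr1:161494657-161505290), the GITR ligand, a costimulator of T cells, had 2 reads in the 3 WT libraries together and 58 in the 3 TCKO libraries. Its level was 0, 0.19 and 0 CPM in WT and 2.1, 2.21 and 2.33 CPM in TCKO, so every TCKO library was above every WT library. The ratio of reads was 31.2 with a 95% counting interval of 8.26 to 264, which covers counting error only (edgeR log2 fold change 4.69 ± 0.65, adjusted p = 0.00241). Without WT replicate 2, which holds both WT reads, the fitted log2 fold change was 7.27 (edgeR adjusted p = 0.00903). Its receptor Tnfrsf18 was at 1.5, 1.14 and 1.68 CPM in WT and 1.55, 1.84 and 2.44 CPM in TCKO and did not pass (log2 fold change 0.45 ± 0.32, edgeR adjusted p = 0.377).

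Tnfsf9, the ligand of the T cell receptor 4-1BB, was at 2.19, 0.854 and 1.8 CPM in WT and 3.43, 3.2 and 3.32 CPM in TCKO. All TCKO libraries were higher, but Tnfsf9 did not pass (log2 fold change 1.06 ± 0.34, edgeR adjusted p = 0.0677; 0.0485 with the replicate block). Tnfsf12, the ligand TWEAK, was at 6.1, 7.31 and 5.03 CPM in WT and 4.54, 5.41 and 5.87 CPM in TCKO (log2 fold change -0.23 ± 0.21, edgeR adjusted p = 0.491). Tnfsf12Tnfsf13, a joined transcript that shares sequence with Tnfsf12 and Tnfsf13, was at 3 to 3.57 CPM in WT and 2.66 to 3.32 CPM in TCKO (edgeR adjusted p = 0.625), and reads may be split between these overlapping genes. Tnfsf15, a T cell costimulator, was at 4.67 to 7.12 CPM in WT and at 3.32, 3.32 and 10.3 CPM in TCKO, with TCKO replicate 3 the highest of all libraries and the other TCKO libraries the lowest (log2 fold change -0.00 ± 0.46, edgeR adjusted p = 0.995).

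In the TNF receptor superfamily 1 of 13 tested receptors was higher and 3 were lower (30.8% together, against 18.3% of all genes tested). Among these, Tnfrsf23 passed in 1 and Tnfrsf1b in 2 of the 6 fits with a library left out. Tnfrsf12a, the receptor of Tnfsf12, was at 173, 167 and 215 CPM in WT and 184, 191 and 299 CPM in TCKO (log2 fold change 0.28 ± 0.20, edgeR adjusted p = 0.386). Tnfrsf1a, the main TNF receptor of most tissues, was at 174, 173 and 175 CPM in WT and 167, 174 and 169 CPM in TCKO (log2 fold change -0.04 ± 0.06, edgeR adjusted p = 0.725). Tnfrsf10b, the mouse death receptor for TRAIL, was at 136, 125 and 140 CPM in WT and 97.9, 96 and 139 CPM in TCKO. TCKO replicate 3 lay among the WT libraries while the other TCKO libraries lay below them, and the test was not passed (log2 fold change -0.27 ± 0.14, edgeR adjusted p = 0.241). With TCKO replicate 3 left out, the edgeR adjusted p was 0.00445.

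Tnfrsf19 (chr14:60963834-61046855), the receptor TROY of neural and skeletal progenitors, was at 48.2, 47.2 and 76.7 CPM in WT and 17.9, 18.3 and 20.7 CPM in TCKO. Every TCKO library was below every WT library, and Tnfrsf19 fell by 1.59 ± 0.20 on the log2 scale (SE, n = 3 per genotype, edgeR adjusted p = 0.00224). No ligand is paired with it here. It overlaps the long noncoding RNA Gm41168 on the opposite strand, which was not analysed here.

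Tnfrsf14 (chr4:154918487-154928620), the receptor HVEM, was at 6.56, 5.7 and 4.79 CPM in WT and 2.21, 1.84 and 2.1 CPM in TCKO. The genotypes were well apart, and Tnfrsf14 fell by 1.46 ± 0.23 on the log2 scale (edgeR adjusted p = 0.00409; 0.0861 with replicates 1 and 2 added together). Ltbr, which shares the ligand Tnfsf14 with it, was at 102 to 114 CPM in WT and 84.2 to 99.4 CPM in TCKO (log2 fold change -0.25, edgeR adjusted p = 0.0777). Tnfsf14 itself was not among the genes of the table.

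Tnfrsf1b, the second TNF receptor, was at 29.1, 29.3 and 40.3 CPM in WT and 24.4, 21.1 and 17.9 CPM in TCKO. The genotypes did not overlap, and replicate 3 was the highest in WT and the lowest in TCKO. Its log2 fold change was -0.64 ± 0.17 (edgeR adjusted p = 0.0328), and 0.0507 was the edgeR adjusted p with the replicate block. The edgeR adjusted p was 0.0601 and 0.0624 without WT replicates 1 and 2, and 0.101 and 0.0607 without TCKO replicates 2 and 3. Tnf, its ligand, was at 0.345 to 2.04 CPM in WT and 0.123 to 0.775 CPM in TCKO and was not tested.

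Tnfrsf22, Tnfrsf23 and Tnfrsf26 lie next to each other on chromosome 7. The first pair encodes decoy receptors for TRAIL in the mouse that lack a death domain. Tnfrsf23 (chr7:143665807-143686436) was at 29.6, 33 and 49 CPM in WT and 57.7, 59.4 and 67.5 CPM in TCKO, without overlap (log2 fold change 0.73 ± 0.18, edgeR adjusted p = 0.0324). The edgeR adjusted p was 0.092 and 0.122 without WT replicates 1 and 2, and 0.0749, 0.0837 and 0.068 without TCKO replicates 1 to 3. Tnfrsf22 was at 12.7 to 19.4 CPM in WT and 18.2 to 25.2 CPM in TCKO (log2 fold change 0.30, edgeR adjusted p = 0.329), and Tnfrsf26 was at 4.18 to 6.83 CPM in WT and 3.44 to 4.1 CPM in TCKO (log2 fold change -0.48, edgeR adjusted p = 0.197); both were chosen after their values were seen. These genes are close copies and share an antisense gene, so reads may be split between them.

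The largest group was that of the 26 interleukin receptor chains and decoys, of which 18 were tested, 1 rose and 2 fell. This was 16.7% of those tested, close to the 18.3% of all genes tested. Il31ra (chr13:112521931-112580732), which pairs with Osmr to form the receptor of the itch cytokine Il31, had the largest change. It was at 17.3, 16 and 7.31 CPM in WT and 1.44, 0.983 and 1.44 CPM in TCKO. The lowest WT library, replicate 3, was still well above all TCKO libraries, and the log2 fold change was -3.38 ± 0.39 (SE, n = 3 per genotype, edgeR adjusted p = 0.00127). Il31ra lies beside Il6st on chromosome 13. Il6st, the gp130 chain, was at 947, 980 and 675 CPM in WT and 1108, 1094 and 504 CPM in TCKO, with replicate 3 the lowest in both genotypes (log2 fold change 0.06 ± 0.32, edgeR adjusted p = 0.926). Osmr was at 128, 131 and 146 CPM in WT and 188, 183 and 149 CPM in TCKO (log2 fold change 0.36 ± 0.10, edgeR adjusted p = 0.0445; 0.0551 with the replicate block). The ligand Il31 was not among the genes of the table.

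Il11 had a higher mean in TCKO, while the chain that binds it fell. Il11, a gp130 cytokine that promotes bone formation and is induced by mechanical load and TGF-beta, was at 1.38, 2.75 and 7.07 CPM in WT and 13.6, 11.9 and 63.7 CPM in TCKO. Every TCKO library was above every WT library, and replicate 3 was the highest in each genotype. Il11 did not pass in the fit used here (log2 fold change 3.02 ± 0.94, edgeR adjusted p = 0.0819). DESeq2 gave an adjusted p of 0.0165, and edgeR with the replicate block gave 2.88 and an adjusted p of 0.000277. Il11 passed in 0 of the 6 fits with a library left out. Its adjusted p was 0.0968 by limma-voom and 0.213 by edgeR with replicates 1 and 2 added together. Il11ra1 (chr4:41760443-41769473), the Il11 receptor chain, was at 64, 54.2 and 48.3 CPM in WT and 41.6, 41.7 and 38.6 CPM in TCKO. It fell by 0.45 ± 0.11 on the log2 scale (edgeR adjusted p = 0.0268). The edgeR adjusted p was 0.0887 and 0.0824 without WT replicates 1 and 2, and 0.0787 and 0.0782 without TCKO replicates 1 and 2. Il11ra1 has near-identical copies on the same chromosome, of which Il11ra2 had 20 reads in all, and it overlaps Galt on the same strand in GENCODE (log2 fold change -0.46, edgeR adjusted p = 0.0791), so its count is uncertain.

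**Figure D3:**
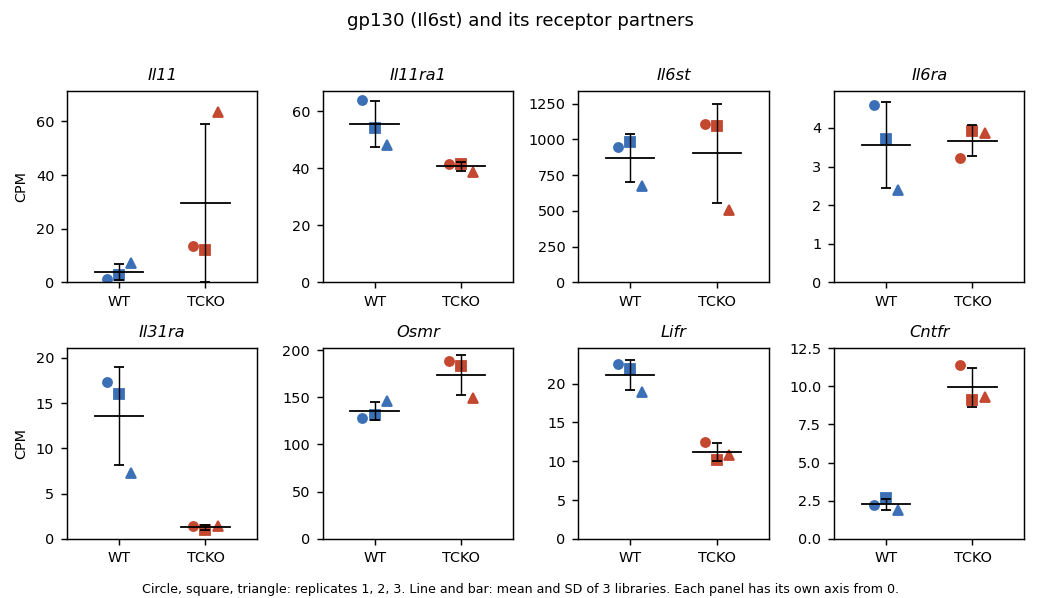
CPM by genotype for Il11, gp130 (Il6st) and receptor chains that pair with gp130 or are related to it; points are libraries, and the line and bar are the mean and SD of 3 libraries. Il11 reached 63.7 CPM in TCKO replicate 3, and Il31ra and Lifr were lower and Cntfr higher in every TCKO library.

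Il1rl2 (chr1:40324589-40367555), the receptor of the interleukin 36 cytokines, was at 12.7, 15.1 and 16.8 CPM in WT and 21.7, 27.3 and 19 CPM in TCKO. The genotypes did not overlap, and the log2 fold change was 0.61 ± 0.17 (edgeR adjusted p = 0.0386). The edgeR adjusted p was 0.14 and 0.118 without WT replicates 1 and 2, and 0.0923 and 0.131 without TCKO replicates 1 and 2. Among the abundant chains, Il4ra, shared by the receptors of Il4 and Il13, was at 76.4, 77.3 and 79.3 CPM in WT and 77.2, 82.1 and 48.3 CPM in TCKO (log2 fold change -0.17 ± 0.18, edgeR adjusted p = 0.571). Il17ra, the common chain of interleukin 17 receptors, was at 60, 60.7 and 69.3 CPM in WT and 47.2, 47.9 and 66.3 CPM in TCKO (log2 fold change -0.23 ± 0.14, edgeR adjusted p = 0.291). Its TCKO replicate 3 lay among the WT libraries, and without it the edgeR adjusted p was 0.0163.

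Of the 5 interleukins tested none passed by edgeR, while DESeq2 called Il11 and Il16. By edgeR 3 of the 5 had an unadjusted p under 0.05, against 4493 of all 13630 genes tested. Il16, a chemoattractant for cells with Cd4, was at 6.45, 2.75 and 3 CPM in WT and 1.88, 1.72 and 0.554 CPM in TCKO. The genotypes did not overlap, and the log2 fold change of -1.54 ± 0.50 had an edgeR adjusted p of 0.0692 (0.0191 with the replicate block, 0.0353 by DESeq2). It overlaps Stard5 on the opposite strand, which fell (log2 fold change -0.58, edgeR adjusted p = 0.0187), and the part of Stard5 reads in Il16 was not tested. Il7, which supports developing lymphocytes, was at 11.9, 9.59 and 7.31 CPM in WT and 7.2, 5.65 and 7.42 CPM in TCKO (log2 fold change -0.50 ± 0.21, edgeR adjusted p = 0.145; 0.0424 without WT replicate 3). Il17d was at 3.42 to 5.75 CPM in WT and 3.56 to 4.87 CPM in TCKO (edgeR adjusted p = 0.921).

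**Figure D4:**
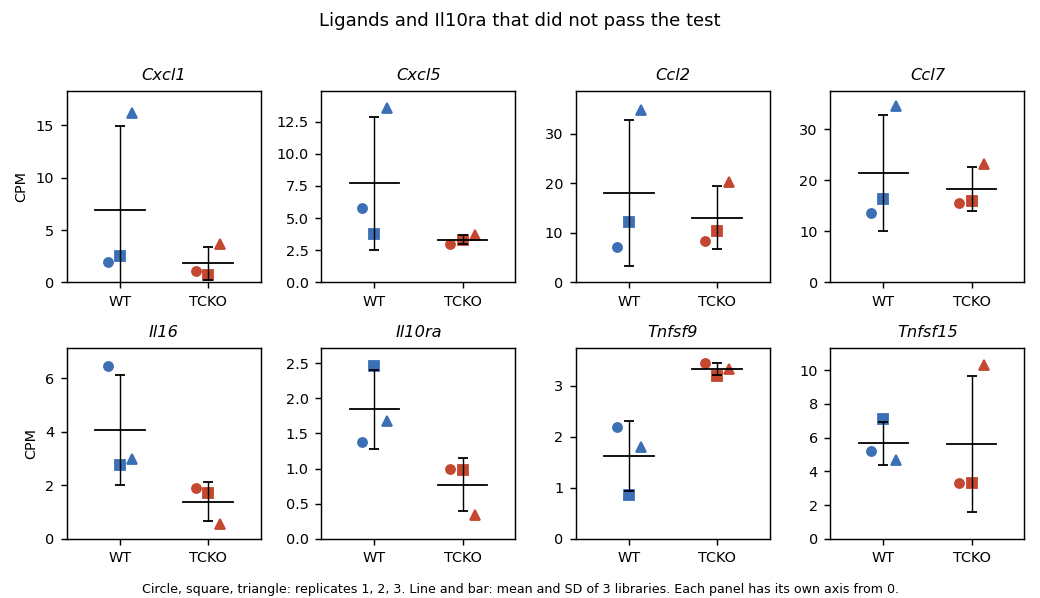
CPM by genotype for 7 ligands and Il10ra, none of which passed; points are libraries, and the line and bar are the mean and SD of 3 libraries. In Cxcl1, Ccl2 and Ccl7 replicate 3 (triangles) was the highest library in both genotypes, with 16.2 CPM of Cxcl1 in WT and 3.65 CPM in TCKO.

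Macrophage markers were present in the cultures, and the receptor chains Il10ra and Il2rg, known from leukocytes, were low. Il10ra, the ligand-binding chain of the Il10 receptor, was at 1.38, 2.47 and 1.68 CPM in WT and 0.997, 0.983 and 0.332 CPM in TCKO, without overlap (log2 fold change -1.27 ± 0.46, edgeR adjusted p = 0.0912). Il2rg, the common gamma chain, named after its values were seen, was at 1.27, 1.71 and 3.6 CPM in WT and 0.664, 0.614 and 1.44 CPM in TCKO (log2 fold change -1.23 ± 0.52, edgeR adjusted p = 0.14; 0.0356 with the replicate block). The 10 macrophage markers of the table (of 11 listed names) summed to 435 to 772 CPM in WT and 167 to 560 CPM in TCKO. Of the 9 tested, 1 fell by edgeR (Emr1, log2 fold change -1.54, edgeR adjusted p = 0.00356) and 4 by DESeq2, and 6 fell in the edgeR fit with the replicate block (Emr1, Cd68, Csf1r, Mrc1, Ptprc and Tyrobp). The log2 fold changes of all 9 were negative, and none was at 0. The part of macrophages in the values of Il10ra, Il2rg, Tnfrsf1b, Tnfrsf14 and the other members was not tested, and in bulk RNA fewer cells of a type cannot be told apart from less RNA per cell. The 5 endothelial markers in the table (of 7 listed) summed to 4.67 to 5.22 CPM in WT and 3.43 to 6.02 CPM in TCKO, and 3 of 9 granulocyte and mast cell markers summed to 0.576 to 2.04 and 0.246 to 2.66 CPM.

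Markers of the skeletal lineages also differed. Of 7 osteoblast markers 4 fell and none rose (6 fell with the replicate block), where 8.9% of all genes tested were lower. Those that fell were Runx2 (log2 fold change -0.39, edgeR adjusted p = 0.0153), Alpl (-3.21, edgeR adjusted p = 0.0204), Col1a1 (-0.64, edgeR adjusted p = 0.0232) and Sparc (-0.99, edgeR adjusted p = 0.00109). Among these Sparc alone passed with each library left out in turn. All 6 chondrocyte markers fell, from a sum of 6358 to 8474 CPM in WT to 682 to 974 CPM in TCKO. Most of this sum was Col2a1, at 5835 to 7833 CPM in WT and 608 to 851 CPM in TCKO. Matn1, at 0.111 to 1.11 CPM in TCKO, passed in 1 of the 6 fits with a library left out. The other chondrocyte markers passed in all 6 fits. None of these markers was at 0 in any library, and their part in the falls of Ackr4, Il31ra, Cxcl14, Tnfrsf19 and Ackr3 was not tested.

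Per exon length, Tnfrsf12a (95.7 RPKM in WT and 116 in TCKO), Il6st (78.1 and 81.3) and Tnfrsf1a (67.2 and 65.6) were the 3 most abundant members in both genotypes. Cxcl14 followed in WT and took rank 5 in TCKO (21.4 RPKM), behind Ccl7 (22.8). Ackr4 went from rank 19 to rank 62, from 4.7 to 0.212 RPKM, and Il31ra from rank 31 to rank 60, from 2.39 to 0.227 RPKM. Tnfsf18 was the lowest member in WT (0.0306 RPKM) and was at rank 42 in TCKO (1.07 RPKM).

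Other genes of the same pathways were examined as lists. Of all 13630 genes tested, 9.44% were higher and 8.9% lower, 18.3% together. Of 11 tested genes of gp130 and related cytokines and receptors outside the name rule, 3 rose and 2 fell (45.5%). Cntfr, the Cntf receptor chain, rose from 2.19, 2.66 and 1.92 CPM to 11.4, 9.09 and 9.3 CPM (log2 fold change 2.12, edgeR adjusted p = 0.000543). Lifr, the LIF receptor chain, fell from 22.6, 21.9 and 18.9 CPM to 12.5, 10.2 and 10.9 CPM (-0.92, edgeR adjusted p = 0.00288), and Lepr, the leptin receptor, fell from 79.9, 84.3 and 107 CPM to 16.5, 15.7 and 30.3 CPM (-2.11, edgeR adjusted p = 0.00344). Each of these 3 passed with every library left out in turn; Cntf, which rose (1.82, edgeR adjusted p = 0.0323), and Osmr passed in 2 of the 6 such fits. Downstream, 1 of 20 JAK, STAT and SOCS genes rose (Socs6, 0.34, edgeR adjusted p = 0.0466, in 1 of the 6 such fits), and DESeq2 called 0.

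In the TRAF and NF-kB list 2 of 24 genes rose and 4 fell, or 25%, against 18.3% of all genes tested. Tnfaip3, the NF-kB inhibitor A20, rose from 11.6, 10.5 and 17.1 CPM to 28.2, 28.3 and 48.2 CPM (log2 fold change 1.42, edgeR adjusted p = 0.0134, in 4 of 6 fits with a library left out), and the adaptor Traf4 rose (0.48, edgeR adjusted p = 0.00634). Cyld, a deubiquitinase that restrains NF-kB, fell from 110, 111 and 97.3 CPM to 65.3, 55.6 and 66.2 CPM (-0.77, edgeR adjusted p = 0.0014). The scaffold Ikbkg (-0.57) and the transcription factor genes Relb (-0.40) and Nfkb2 (-0.30) also fell, with edgeR adjusted p of 0.0125, 0.0384 and 0.04, and passed in 2, 0 and 1 of the 6 fits with a library left out. Traf4 and Cyld passed in all 6. With the replicate block 4 genes of this list were higher, Chuk and Nfkbiz among them, and 4 were lower.

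Of 18 tested genes of chemokine receptor signalling 1 rose and 3 fell, or 22.2%, against 18.3% of all genes tested. Cmklr1, the chemerin receptor, fell from 21.9, 22.5 and 18.5 CPM to 4.54, 5.53 and 7.42 CPM (log2 fold change -1.84, edgeR adjusted p = 0.000686), and Rgs3, which shortens G protein signals, fell from 31.1, 27.2 and 37.3 CPM to 14.2, 13.9 and 10.6 CPM (-1.30, edgeR adjusted p = 0.00143). Both passed with each library left out. Elmo1 fell (-0.77, edgeR adjusted p = 0.0498) and the receptor kinase Grk5 rose (0.42, edgeR adjusted p = 0.0373), in 2 and 1 of the 6 fits. With the replicate block 2 rose, Rgs16 being the other, and 3 fell. The list of TNF family genes outside the name rule also held the signalling genes Tradd, Fadd and Ripk1. Of its 9 tested genes 1 rose (Relt, 0.76, edgeR adjusted p = 0.0299, in 2 of the 6 fits), and with the replicate block Fas fell as well. The list of colony-stimulating factors and receptors also held the growth factor genes Kitl and Flt3l, and none of its 7 tested genes passed by edgeR. Among them 3 had an unadjusted p under 0.05, against 4493 of all 13630 genes tested. DESeq2 called 1 of the 7, and with the replicate block Csf1r fell. The median log2 fold change was 0.36 in the list of gp130 and related cytokines, 0.01 in the JAK-STAT list and -0.10 in the TRAF and NF-kB list. It was -0.15 in the chemokine receptor list, -0.21 in the TNF list and -0.61 in the colony-stimulating factor list, against -0.00 for all genes.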

How the data were processed

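RNA-seq was done with a TruSeq kit on 3 WT and 3 TCKO samples. The authors deposited raw read counts for each gene, from alignments to GRCm38; the submitters' processing notes name HISAT2 and the published methods name STAR. No source used here names the counting program or its strand setting. There are 16455 genes in the table, each with at least 10 reads in total, and the authors' own mean, fold change, p-value and FDR columns, which hold their comparison of the genotypes, were not used.

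Counts were tested with edgeR 4.0.16 in R 4.3.3 (filterByExpr by genotype, TMM, robust glmQLFit, glmQLFTest, genotype only), which kept 13630 genes; p-values are 2-sided and Benjamini-Hochberg adjusted over these. A change was counted at an adjusted p under 0.05, and also with a fold above 2. The standard error is the log2 fold change over the square root of F. RPKM used union exon lengths of GENCODE vM21. Promoter windows and coordinates are from RefSeq (GRCm38.p6), to which all 79 members were matched. The code was tested on simulated data.

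Named members are those that passed, those with an absolute log2 fold change above 1 and no overlap, the 3 of highest mean CPM in each role group, and partners of members that passed. Members and lists were chosen with earlier results of these data known. Same-numbered WT and TCKO libraries deviated together (correlations of 0.18, 0.18 and 0.32 of deviations from the genotype means), and each was above 0.1, so a fit with the replicate number as a block was run beside the main one. The correlation was as high between unlike numbers 1 and 2 (0.17 and 0.23) and from -0.27 to -0.22 between replicate 3 and these, so the data set replicate 3 apart but do not separate the pairs 1 and 2. Other alternatives were DESeq2 1.42.0, limma-voom (limma 3.58.1), median-of-ratios size factors, no low-count filter, replicates 1 and 2 summed, each library left out, and, chosen after seeing the data, replicate 3 of both genotypes left out.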

Additional observations from a re-analysis of the deposited data

How the results depend on the processing

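With median-of-ratios size factors, no low-count filter or limma-voom, 4 members were higher and 8 lower, as in the fit reported; DESeq2 called 5 and 9. With the replicate block 6 members were higher and 10 lower, while 1729 and 1623 of all 13630 genes were higher and lower. With a fold above 2 as well, 4 members were higher and 9 lower in this fit, against 458 and 486 of all genes. The labels do not say that same-numbered libraries share a litter or culture, so the block is not a known pairing. The replicate block changed the call of Cxcl1, Il11, Il16, Il2rg, Tnfsf9 and Tnfrsf1b and of no other member. Calls among the listed genes that it changed are in part given beside those lists. With replicates 1 and 2 summed, 2 members (Cxcr6 and Tnfsf18) were higher and 3 (Ackr4, Il31ra and Tnfrsf19) lower, and 3 lower with a fold above 2. In that fit 197 and 156 of all 14472 genes tested were higher and lower. With a library left out in turn, members higher ranged from 2 to 4 and lower from 5 to 10. With a fold above 2 the members higher stayed at 2 and those lower ranged from 5 to 6. Over all genes in these fits, 612 to 1702 were higher and 578 to 1611 lower, with 13886 to 13943 tested. Without replicate 3 of both genotypes, chosen after seeing the data, 12 members were higher and 16 lower. Of all 13751 genes in that fit 3243 were higher and 3128 lower. With a fold above 2 as well, 6 members were higher and 9 lower, against 679 and 663 of all genes. The remaining libraries, replicates 1 and 2, are unusually alike, so these p-values rest on a small spread. No member changed direction among the calls under any alternative run. The 21 untested members had 50 reads or fewer in all, so depth limits what can be said of them.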

Other observations

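Replicate 3 was the highest library in both genotypes for 22 of the 58 tested members (37.9%), against 21.8% of all genes tested, and the lowest in both for 7 (12.1%), against 21.9%. The members highest in replicate 3 included Il11, where replicate 3 exceeded the mean of replicates 1 and 2 by 1.61 in WT and 2.28 in TCKO on the log2 scale. The same difference was 2.60 and 1.56 for Cxcl1, 1.84 and 1.08 for Ccl2, and 1.19 and 0.54 for Ccl7. It was 0.63 and 0.89 for Ackr3. Cxcl10 went the other way in TCKO, with 0.90 in WT and -1.17 in TCKO. These members were picked after their values were seen, and with 1 such library per genotype the differences were not tested.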
